A study of Mus musculus with 2 samples.

Results

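A set of 10 genes, here called neuronal cytoskeleton genes, was followed in mesenchymal stem/progenitor cells (MSPC). These are the bone marrow stromal cells that form bone, cartilage and fat and that support blood stem cells. Most of the 10 genes build or remodel the cytoskeleton of nerve cells, while Uchl1 encodes a ubiquitin C-terminal hydrolase that is abundant in neurons. The 10 genes, of 35275 in the count table, were taken by symbol: Uchl1, Map2, Map1b, Mapt, Tubb3, Dpysl3, Stmn2, Gap43, Nefl and Nefm. The set was chosen by the ratios of Uchl1 and Map2, which are among the leading genes higher in the mutant library, so the values of these genes describe the libraries and were not tested. RNA sequencing was done on 1 library per genotype, both from C57BL/6 mice carrying Nestin-Cre. The control mice were Ptpn11+/+ and the mutant mice Ptpn11E76K/+, in which 1 allele of Ptpn11 encodes an activated form (E76K) of the phosphatase SHP2. Nestin-Cre is also active outside the marrow, including in the nervous system, and no age, number of animals per library or pooling is stated in the sources used here. The cells were freshly sorted from marrow as CD45-, Ter-119-, CD31-, CD140+ and Sca-1+. Although 2 replicates are mentioned in the design text, only 1 column per genotype was analysed here, so no difference below has a replicate check and no p-value is given.

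A neuron holds its long processes open with microtubules, hollow polymers of alpha and beta tubulin, and with neurofilaments. Microtubule-associated proteins such as MAP2, MAP1B and tau stabilise microtubules and are known for their sorting between dendrites and axons, while stathmins remove tubulin from the ends. Proteins of the growth cone, among them GAP-43 and the collapsin response mediator proteins, steer the growing tip. Many of these genes are used as markers of neurons, and some are also expressed outside the nervous system.

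Total counts were 22328659 for the control library and 18010963 for the mutant library. Levels are given in CPM, counts over library totals scaled with TMM, with exact Poisson intervals at 95%, and folds are ratios of the libraries with exact 95% counting intervals. Both kinds of interval cover counting error only. Where 2 counts stand together, the control library comes first. A gene with at least 20 counts over both libraries was called measured, and a call of higher or lower in the mutant library needed a whole interval beyond 2-fold. The stromal genes of the sort were present in both libraries. Pdgfra had 2073 counts in the control library and 1792 in the mutant library, Pdgfrb 6075 and 3721, both not called. Ly6a, the gene of Sca-1, had 2177 and 612 and was called lower in the mutant library (2.67-fold, 2.44 to 2.93). Ptpn11 itself had 5958 and 5039 counts, which does not check the genotype because the count joins the alleles.

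Of the neuronal cytoskeleton genes, 3 were higher in the mutant library, 1 was lower, 2 were not called and 4 were too low to be measured. Uchl1, Map2 and Map1b were called higher and Stmn2 lower, Tubb3 and Dpysl3 were not called, and Mapt, Gap43, Nefl and Nefm stayed under 20 counts. Of all 13142 measured genes, 6.98% were called higher and 8.29% lower in the mutant library, together 15.3%. The direction of Uchl1 and Map2 was part of how the genes were picked, so nothing is read from these counts against that background. Only the counts of the mutant library took Uchl1 past the minimum of 20 and only those of the control library took Stmn2 past it, which by itself sets their direction. The 16 control counts of Map2 also lay under that minimum, so Map2 too was measured only with its mutant counts. In bulk libraries a change in the number of cells of a type and a change in RNA per cell cannot be told apart.

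**Figure D1:**
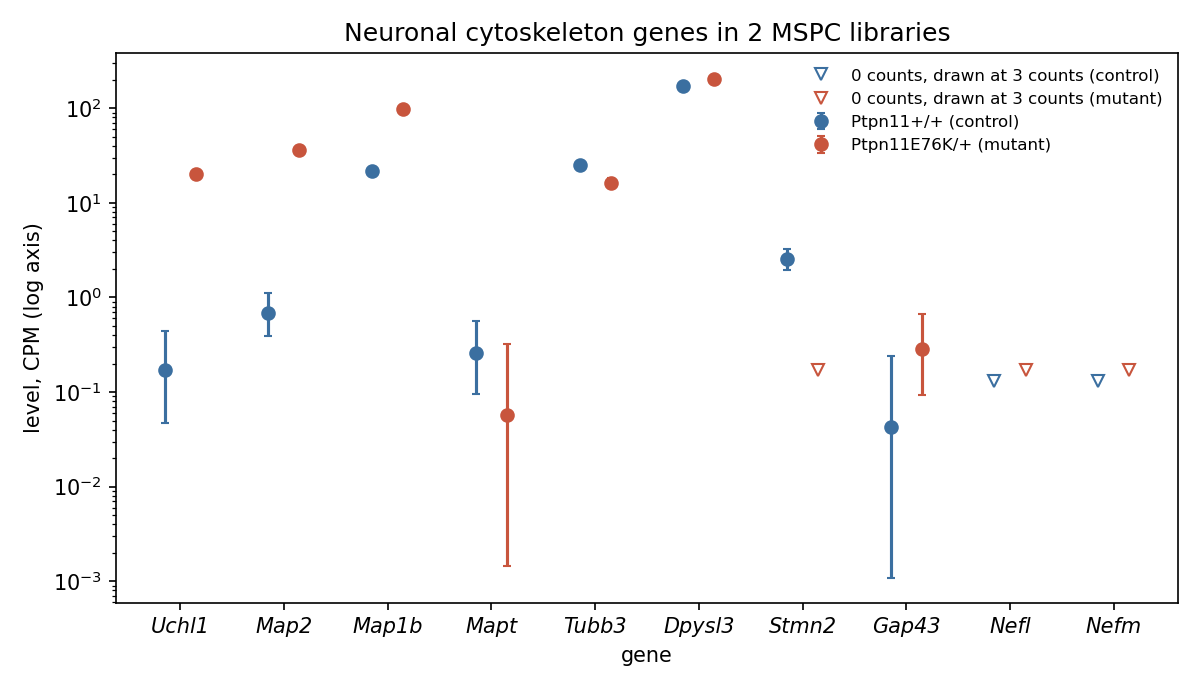
Level of each of the 10 genes in CPM, on a log axis, in the control library (blue) and the mutant library (red), with exact 95% Poisson intervals; open triangles mark 0 counts and are drawn at the level of 3 counts. Uchl1, Map2 and Map1b lie higher in the mutant library, Stmn2 is at 0 there, and Nefl and Nefm are at 0 in both.

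Uchl1 encodes a ubiquitin C-terminal hydrolase that is abundant in neurons and long used to stain nerve fibres. It had 4 counts in the control library and 349 in the mutant library. These are 0.173 CPM (0.0471 to 0.443) and 20.1 CPM (18.02 to 22.3), a 116-fold higher level in the mutant library (44.9 to 428). The ranges do not overlap, and on the scale of CPM per kb of transcript the gene moved from percentile 2.42 of the measured genes in the control to percentile 71.1 in the mutant library. An antisense gene, Uchl1os, overlaps Uchl1 in the GENCODE M21 annotation and shares 16.2% of the 50-base windows of its longest transcript. Uchl1os was at 0 counts in both libraries, but whether the counting used strand is not stated in these sources.

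The other ubiquitin C-terminal hydrolase genes, which act in many cell types, gave smaller ratios. Uchl3 had 578 and 648 counts, a 1.49-fold higher level in the mutant library (1.33 to 1.67). Uchl5, whose product works at the proteasome, had 862 and 1221 counts (1.88-fold higher, 1.73 to 2.06). Bap1, a nuclear member of the family and a tumour suppressor, had 1681 and 1367 counts (1.08-fold higher, 1.01 to 1.16), and Uchl4 had 0 in both. Of the 4 measured genes of this family of 5, Uchl1 alone was called, which its choice by ratio fixes, and the other 3 were not.

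Map2 encodes the microtubule-associated protein known as a marker of dendrites. It had 16 counts in the control library and 636 in the mutant library, or 0.692 CPM (0.395 to 1.12) and 36.6 CPM (33.8 to 39.5). The mutant library was 52.9-fold higher (32.3 to 93.1), and the ranges do not overlap. Per kb of transcript, Map2 stood at percentile 1.74 of measured genes in the control library and at percentile 44.7 in the mutant library, so even there it lay below the median gene. The counts per gene do not separate the long MAP2 isoforms of mature dendrites from the short ones.

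Map1b encodes a microtubule-associated protein of growing axons that other cell types also express. It was already present in the control library with 498 counts, and the mutant library had 1695. The levels were 21.5 CPM (19.7 to 23.5) and 97.5 CPM (92.9 to 102), a 4.53-fold higher level in the mutant library (4.09 to 5.01). Mapt, the gene of the axonal protein tau, had 6 counts in the control library and 1 in the mutant library. The ratio, 4.51-fold lower in the mutant library, had an interval of 0.547 to 207, so no difference was detectable at this depth. Map2 and Map1b, but not Mapt, were thus well detected in the mutant library.

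The wider list of 20 microtubule-associated protein genes had 16 measured genes, of which 2 were called higher (Map2 and Map1b), 1 lower and 13 not called. The shares over all measured genes were 6.98% higher and 8.29% lower. The median log2 ratio of the 16 was 0.17, against 0.01 over all measured genes. The gene called lower was Dclk1, which encodes a doublecortin-like kinase that binds microtubules, with 6419 and 1443 counts (3.34-fold lower, 3.16 to 3.54). Dcx, the gene of doublecortin itself and a marker of young neurons, had 0 counts in both libraries, as had Map7. Map6, the gene of a protein that protects microtubules from cold, had 1759 and 2607 counts and was 1.97-fold higher (1.86 to 2.10), which was not called. Map1a, the sister gene of Map1b, was 1.72-fold higher (1.59 to 1.87) with 1049 and 1359 counts, also not called.

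On the scale of CPM per kb, Map4, which encodes the main microtubule-associated protein of cells that are not neurons, was the most abundant gene of this list in the control library, with 87.4 CPM per kb, and stood at 76.1 in the mutant library. Map7d1 followed with 59.7 and 92.2 CPM per kb and Mapre1, the gene of a protein that rides on growing microtubule ends, with 35.3 and 38.65. Map2 made up 0.0367% of the summed level per kb of the list in the control library and 1.81% in the mutant library. For Map1b these shares were 0.605% and 2.56%. The large ratios of Map2 and Map1b therefore belong to genes that remained a small part of this list in both libraries.

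RefSeq promoter windows on the GRCm38.p6 build were at hand for 4 of the 10 genes, and are shown for the 3 genes called higher and, for contrast, for Tubb3, which was not called. Each window runs from 250 bases before the annotated start of the gene through the first 50 bases of the transcript, 5′ to 3′ on the strand of the gene, and capitals mark these 50 transcribed bases. The windows are chr5:66675871-66676170 on the plus strand for Uchl1, chr1:66175079-66175378 on the plus strand for Map2, chr13:99516553-99516852 on the minus strand for Map1b and chr8:123411303-123411602 on the plus strand for Tubb3.
Uchl1: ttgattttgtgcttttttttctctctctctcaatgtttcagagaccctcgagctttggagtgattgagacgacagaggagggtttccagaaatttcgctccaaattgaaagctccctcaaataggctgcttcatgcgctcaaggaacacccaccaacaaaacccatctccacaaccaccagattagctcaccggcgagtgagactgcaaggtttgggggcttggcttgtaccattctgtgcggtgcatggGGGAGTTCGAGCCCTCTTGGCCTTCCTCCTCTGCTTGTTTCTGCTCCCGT
Map2: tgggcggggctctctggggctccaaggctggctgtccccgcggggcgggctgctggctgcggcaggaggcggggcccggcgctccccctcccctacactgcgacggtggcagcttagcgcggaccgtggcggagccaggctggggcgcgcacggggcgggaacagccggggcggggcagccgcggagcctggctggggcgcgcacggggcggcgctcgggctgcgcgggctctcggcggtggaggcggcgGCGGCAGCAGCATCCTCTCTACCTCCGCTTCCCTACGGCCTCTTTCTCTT
Map1b: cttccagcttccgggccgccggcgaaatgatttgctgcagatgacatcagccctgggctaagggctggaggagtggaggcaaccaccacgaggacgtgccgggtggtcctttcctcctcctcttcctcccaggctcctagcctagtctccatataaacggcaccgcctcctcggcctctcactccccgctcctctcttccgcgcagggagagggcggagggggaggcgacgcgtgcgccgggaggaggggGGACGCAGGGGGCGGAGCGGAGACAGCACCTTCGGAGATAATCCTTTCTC
Tubb3: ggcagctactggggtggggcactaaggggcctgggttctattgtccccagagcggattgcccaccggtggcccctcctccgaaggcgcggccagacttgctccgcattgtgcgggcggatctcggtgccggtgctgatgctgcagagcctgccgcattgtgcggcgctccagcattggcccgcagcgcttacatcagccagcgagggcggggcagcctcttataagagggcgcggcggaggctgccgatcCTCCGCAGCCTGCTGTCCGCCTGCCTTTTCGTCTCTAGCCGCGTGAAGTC

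The 4 windows differ in base composition. Map2 has 77.7% G and C and 37 CpG dinucleotides, at percentile 98.1 and percentile 95.05 of all 32851 mouse windows. Map1b has 65.7% and 23 CpG, Tubb3 67.3% and 26 CpG, and Uchl1 only 50.7% and 9 CpG, close to the median window with 52.7% and 7. The genes called higher therefore do not share a base composition in this window. The cyclic AMP response element TGACGTCA and the AP-1 element TGANTCA, searched on both strands, were in none of the 4 windows and in 1.79% and 7.81% of all windows. The ETS element CCGGAAG was in the Map1b window, as CTTCCGG from position -243 with the start as 0, and in 8.86% of all windows. Of the RE1 element, to which the neuronal gene repressor REST binds, the left part TTCAGCACC was in none of the 4 windows and in 0.371% of all. The right part GGACAGC was found as GCTGTCC from position -220 of Map2 and from position 11 of Tubb3, and in 6.56% of all windows. The motifs searched do not overlap each other in these windows, and a match is a description of the letters only.

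Of the genes of the repressor and its partners, 9 are reported here. All 9 were measured and none were called (median log2 ratio -0.07, against 0.01 over all measured genes). Over all measured genes 15.3% were called in either direction, so nothing is read from 0 calls among 9 genes. Rest, which encodes the repressor that keeps neuronal genes silent outside the nervous system, had 1983 counts in the control library and 1066 in the mutant library. That is 1.40-fold lower (1.30 to 1.51), which was not called. Rcor1, the gene of its CoREST partner, was at 1515 and 1104 counts, a ratio near 1 after scaling (1.03-fold lower, 0.954 to 1.12). Rcor2, a related gene, was 2.03-fold higher (1.61 to 2.56) with 124 and 189 counts and was not called. The other corepressor genes reported here had smaller ratios. The deacetylase genes Hdac1 (3937 and 3139 counts) and Hdac2 (3486 and 2847) were 1.06-fold and 1.09-fold higher, the methyltransferase gene Ehmt2 (4361 and 3130) 1.05-fold lower and the demethylase gene Kdm1a (1827 and 1195) 1.15-fold lower. Sin3a (1194 and 797) was 1.13-fold lower and Rcor3 (442 and 216) 1.54-fold lower.

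**Figure D2:**
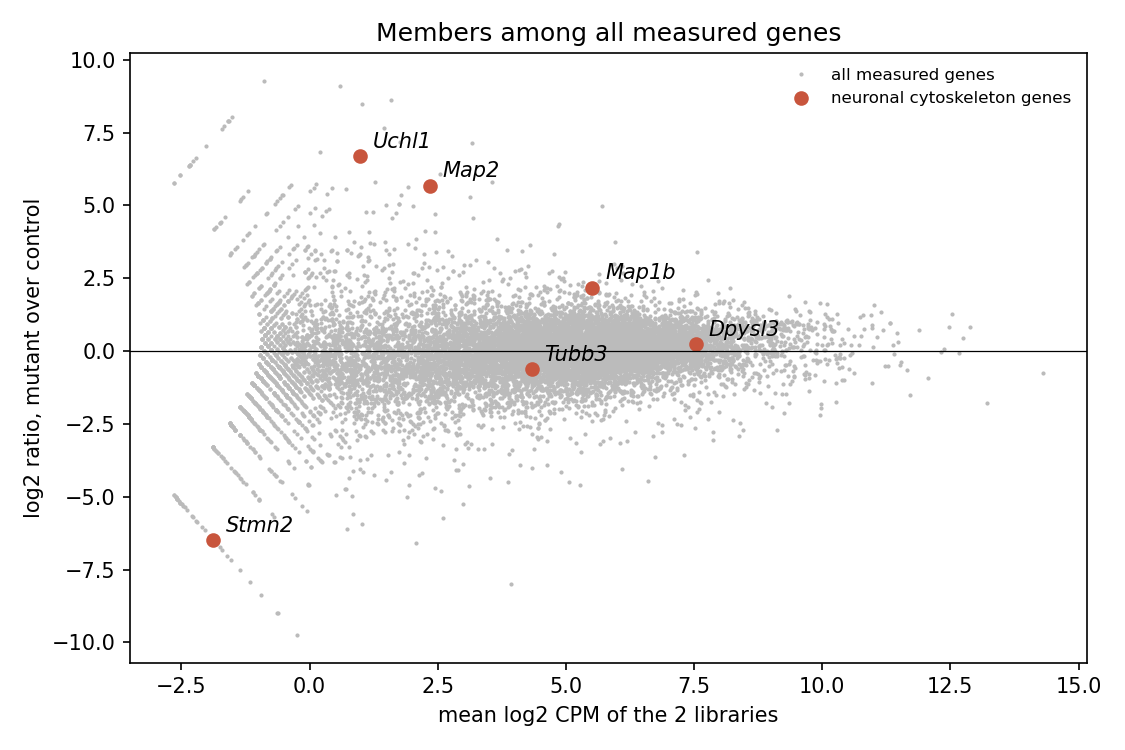
Log2 ratio of the mutant over the control library against the mean log2 CPM of both libraries for all 13142 measured genes (grey), with the 6 measured neuronal cytoskeleton genes in red. Uchl1, Map2 and Stmn2 lie at the edges of the cloud at low mean levels, while Tubb3 and Dpysl3 lie within it.

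Tubb3 encodes class III beta tubulin, the isotype used as a marker of young neurons. It had 577 counts in the control library and 282 in the mutant library, or 24.9 CPM (23.0 to 27.1) and 16.2 CPM (14.4 to 18.2). The level was 1.54-fold lower in the mutant library (1.33 to 1.78), outside counting error but inside the 2-fold limit of the calls. No 50-base window of its longest transcript was found in a transcript of another gene. The ratio of Tubb3 thus ran opposite to those of Uchl1, Map2 and Map1b in the same libraries.

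Several other tubulin genes were higher in the mutant library. Of 13 alpha and beta tubulin genes 11 were measured, and 5 were called higher, 0 lower and 6 not called. Of all measured genes, 6.98% were called higher and 8.29% lower. The median log2 ratio of the 11 was 0.93 against 0.01 over all measured genes. Tubb4a, which encodes the beta tubulin isotype of the brain and of myelinating cells, had 3 and 128 counts, a ratio of 56.8 (19.0 to 279). It passed the minimum only through the mutant library, and 0.184% of its 50-base windows occur in other genes. Tubb6, the gene of a beta tubulin found in many tissues, had 5937 and 11535 counts (2.58-fold higher, 2.50 to 2.67), and none of its windows were shared. Tuba4a was 5.86-fold higher (5.14 to 6.70) with 277 and 1220 counts, but 48.8% of its windows also occur in other transcripts, mostly those of Stk16. Tuba1b (14425 and 33389 counts) was 3.08-fold and Tuba1c (3230 and 8032) 3.31-fold higher. Reads of these alpha tubulins cannot be told apart with certainty, since 83.1% of the windows of Tuba1b and 61.0% of those of Tuba1c occur in other genes.

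Set against all beta tubulin genes on the scale of CPM per kb, Tubb3 was a minor isotype in both libraries. It made up 1.21% of the summed level in the control library and 0.484% in the mutant library, while Tubb5, the common isotype of dividing cells, made up 61.2% and 53.4%. Tubb4a went from 0.00526% to 0.184% and Tubb6 from 13.2% to 21.04%. The summed level of the beta tubulins was 1107 CPM per kb in the control library and 1794 in the mutant library, a ratio of 1.62. Among alpha tubulins Tuba1a, the isotype of developing brain, was 60.2% of the sum in the control library and 28.4% in the mutant library, and Tuba1b 32.9% and 58.0%. Tuba1a (27296 and 16896 counts) was 1.21-fold lower (1.19 to 1.24), with 75.5% of its windows shared. Of the isotypes abundant in neurons, Tubb2a (3148 and 2648 counts) was 1.12-fold higher (1.06 to 1.18) and Tubb2b (116 and 158) 1.81-fold higher (1.42 to 2.32), both not called and with 49.6% and 39.3% of their windows shared.

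**Figure D3:**
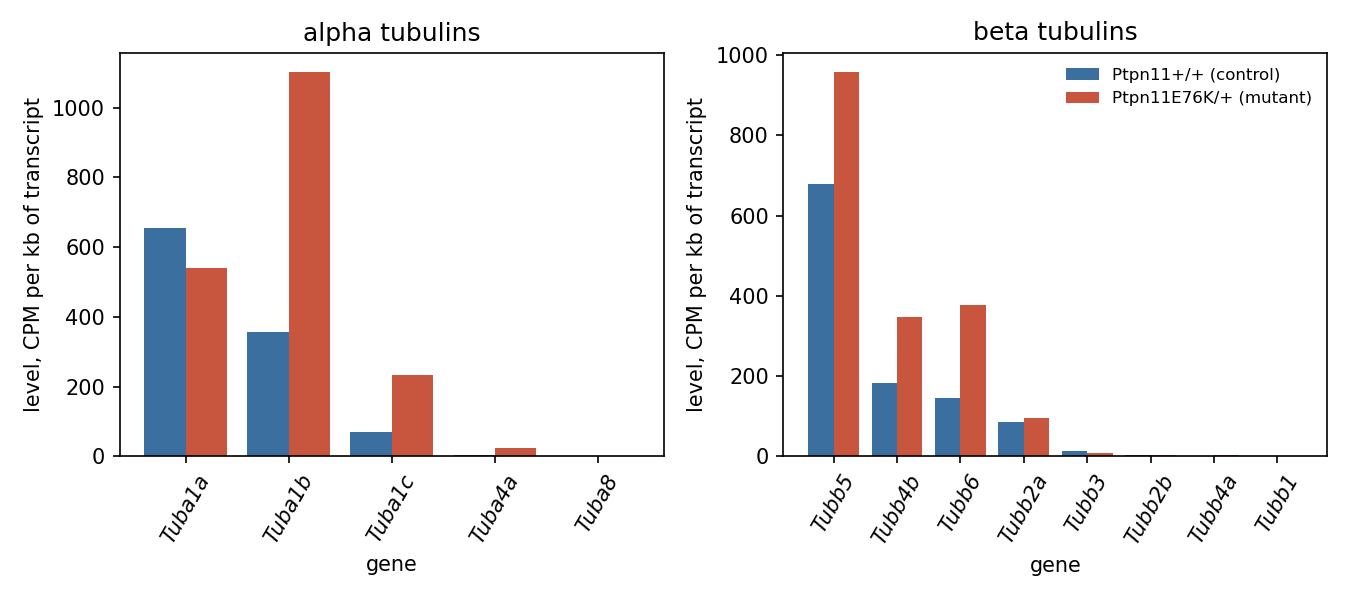
Levels of alpha (left) and beta (right) tubulin genes in CPM per kb of transcript, in the control library (blue bars) and the mutant library (red bars), with 1 library per bar and no error bars. Tubb5 leads the beta tubulins in both libraries, Tuba1b stands above Tuba1a only in the mutant library, and Tubb3 is a small part of the total.

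Dpysl3 encodes a collapsin response mediator protein, which links guidance signals to the growth cone, and was the most abundant of the 10 genes in both libraries. It had 3965 counts in the control library and 3510 in the mutant library, or 171 CPM (166 to 177) and 202 CPM (195 to 209). The difference, 1.18-fold higher in the mutant library (1.12 to 1.23), was not called. Its relative Dpysl2 was likewise present and not called, with 2276 and 1496 counts (1.14-fold lower, 1.07 to 1.22). Crmp1 (2 and 0 counts), Dpysl4 (1 and 0) and Dpysl5 (2 and 0), the family members with narrower neuronal expression, were at or under 3 counts. Both libraries therefore held the same 2 of the 5 genes of this family above the minimum, with a median log2 ratio of 0.02.

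Stmn2 encodes a stathmin of growing axons and is a gene that neurons express strongly. It had 59 counts in the control library, 2.55 CPM (1.94 to 3.29), and 0 in the mutant library, where the floor of 3 counts is 0.173 CPM and the upper Poisson limit 0.212 CPM. Set against the floor, the level was 14.8-fold lower in the mutant library, a value that depends on the floor chosen. The exact lower bound of the ratio, which also holds the counting error of the control library, was 11.7. The ranges do not overlap, and the direction is opposite to that of Uchl1 and Map2. Of the 50-base windows of the longest Stmn2 transcript, 1.49% occur in transcripts of other genes, 224 in all. Whether reads of such windows are among the 59 counts is not known. Stmn1, the stathmin of dividing cells, was abundant and not called (4684 and 3878 counts, 1.10-fold higher, 1.06 to 1.15). Stmn3 (0 and 1 counts) and Stmn4 (4 and 1) were not measured.

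Gap43, which encodes the main membrane protein of the growth cone, had 1 count in the control library and 5 in the mutant library. The ratio of 6.65 had an interval of 0.744 to 315, so no difference was detectable at this depth. Of the related membrane proteins that bind calmodulin or actin beneath the membrane, Basp1 was 3.25-fold higher (3.08 to 3.43) with 1904 and 4653 counts. Marcks, with 12869 and 4141 counts, was 2.34-fold lower (2.26 to 2.42). Marcksl1 (2616 and 1105 counts) was 1.78-fold lower (1.66 to 1.91) and not called, and Nrgn had 1 and 0 counts. The 3 measured genes of this list of 5 thus had 1 called higher, 1 lower and 1 not called. Over all measured genes 6.98% were called higher and 8.29% lower, and 3 genes are too few to set against these shares.

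Nefl and Nefm encode the light and medium neurofilament chains, which fill mature axons. Neither had a count in either library, where the upper Poisson limits are 0.159 CPM in the control library and 0.212 CPM in the mutant library. The genes overlap in the GENCODE M21 annotation and share 31.8% of the windows of Nefl. How the counting treated reads in such an overlap is not stated in the sources. The heavy chain gene Nefh had 4 and 1 counts and Ina, the gene of alpha-internexin, 3 and 0. Prph, the gene of peripherin in peripheral nerves, had 3 and 9. These neurofilament and other neuronal filament genes thus had at most 9 counts in either library. For Nefl and Nefm the unstated treatment of the overlap limits what 0 counts say of their level.

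Of the 10 intermediate filament genes listed, 3 were measured. Vim, the gene of vimentin, had 152954 and 110454 counts (1.04-fold lower, 1.03 to 1.05) and stood at 2260 and 2171 CPM per kb. Nes, the gene of nestin and a marker of neural and mesenchymal progenitors, had 5192 and 10785 counts. It was 2.76-fold higher in the mutant library (2.67 to 2.86) and the only gene called among these 3, where 6.98% of all measured genes were called higher. Synm, which encodes synemin, a partner of vimentin, had 131 and 110 counts and was not called. Des, the desmin gene of muscle, had 0 and 6 counts and Gfap, the filament gene of astrocytes, 6 and 2.

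**Figure D4:**
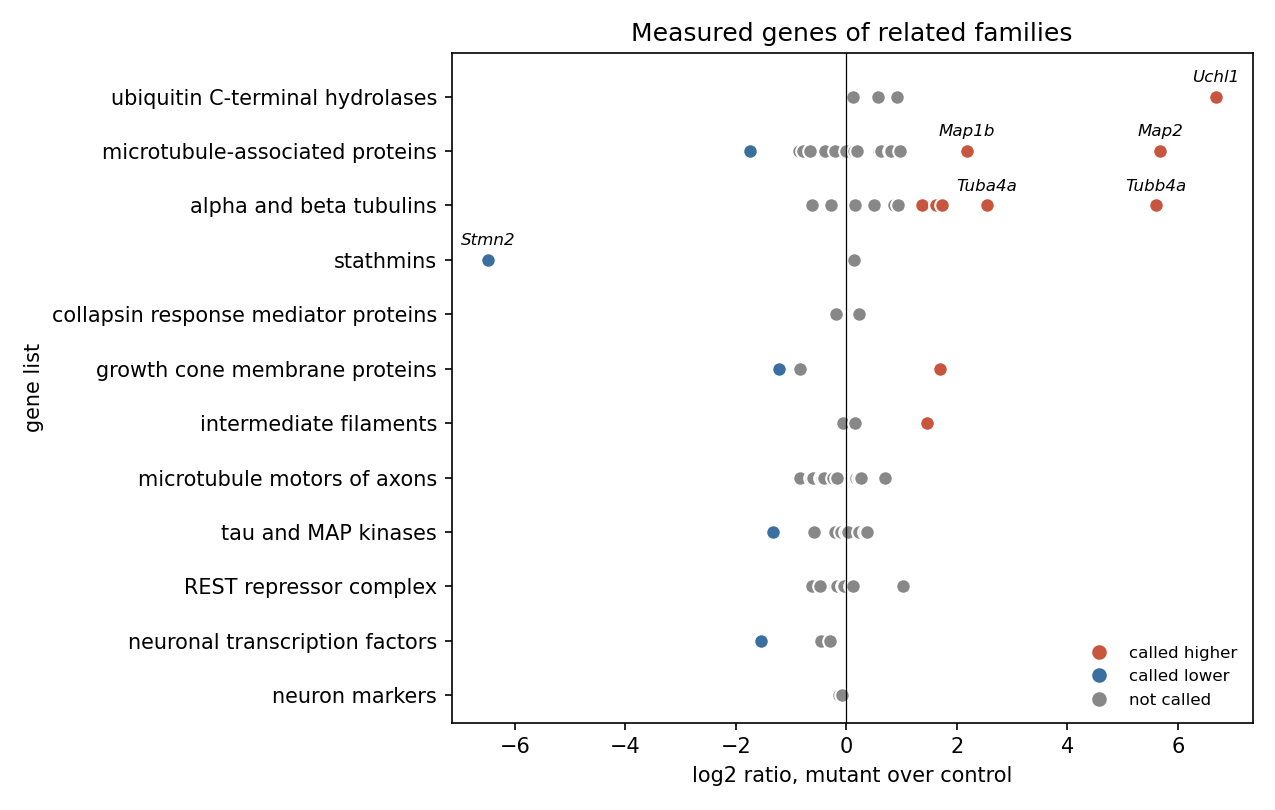
Log2 ratio of the mutant over the control library for each measured gene of 12 lists, with genes called higher in red, called lower in blue and not called in grey, and names for ratios beyond 2 on the log2 scale. Uchl1, Map2 and Tubb4a stand at the right and Stmn2 at the left. None of the measured motor genes or neuron markers were called, where 15.3% of all measured genes were called.

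Ordered by CPM per kb in the control library, Dpysl3 came first (31.3), followed by Tubb3 (13.4), Map1b (1.82) and Stmn2 (0.747), each apart from the next beyond counting error. Uchl1 (0.147), Map2 (0.111), Mapt (0.0494) and Gap43 (0.0304) followed with intervals that overlap from each gene to the next. In the mutant library Dpysl3 (36.8) came first, then Uchl1 (17.1), Tubb3 (8.68), Map1b (8.26) and Map2 (5.84). There the intervals of Tubb3 and Map1b overlap, and those of the other neighbours among these 5 do not. Gap43 (0.202) and Mapt (0.0109) followed, with Stmn2, Nefl and Nefm at 0. Between the libraries Uchl1 moved from the fifth place to the second, and Stmn2 from the fourth place to the 3 genes at 0.

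Genes that carry cargo along microtubules or act on tau were mostly not called. Over all measured genes 15.3% were called in either direction, so nothing is read from the calls in these short lists. None of the 12 measured of 14 motor genes were called (median log2 ratio -0.32, against 0.01 over all measured genes). Kif5a, a kinesin gene of neurons, had 95 and 47 counts (1.52-fold lower, 1.06 to 2.20) and Kif1a, another, 25 and 22. On the per kb scale, the most abundant motor genes in the control library were Kif1c (9496 and 8081 counts, 1.13-fold higher, 1.099 to 1.17), Klc1 (3334 and 4045, 1.61-fold higher, 1.54 to 1.69) and the dynein heavy chain gene Dync1h1 (17767 and 9779, 1.37-fold lower, 1.33 to 1.40). Among 10 genes of kinases that phosphorylate tau and related proteins, with their activators, 9 were measured and only Mark1 was called. Mark1 was 2.53-fold lower (2.13 to 3.01) with 588 and 175 counts, while Cdk5 (766 and 497) was 1.16-fold lower (1.03 to 1.30) and Gsk3b (3008 and 1510) 1.498-fold lower (1.41 to 1.59), both not called. The related genes Gsk3a, Mark2, Mark3, Mark4, Dyrk1a and the activator gene Cdk5r1 ranged from 1.07-fold lower (Mark4) to 1.29-fold higher (Mark3), and the activator gene Cdk5r2 had 5 and 2 counts.

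Most markers of neurons outside the cytoskeleton were at or near 0 in both libraries, with Celf4 and Syn1 as exceptions. Of 11 neuron markers 6 had 0 counts in both: Rbfox3, Elavl4, Snap25, Syt1, Gad1 and Gad2. Elavl3 had 1 and 0 counts, Slc17a7 3 and 1, and Syp, a gene of synaptic vesicles, 11 and 0. Celf4 (387 and 266 counts) and Syn1 (44 and 31) were the 2 measured genes and were not called. The summed level of the list was 19.3 CPM in the control library and 17.1 CPM in the mutant library, almost all of it Celf4. The 6 markers of sympathetic and neuroendocrine cells reported here held 2 counts in all in each library (Chgb 2 and 1, Scg2 0 and 1), with Th, Dbh, Chga and Scg3 at 0 in both.

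Of 7 Schwann cell and glia markers reported here, 2 were measured. Mbp was higher in the mutant library (1 and 27 counts, a ratio of 35.9, 5.92 to 1470) and was measured only through that library. S100b (52 and 28 counts) was not called, and Erbb3 (3 and 3) and Gfap were not measured. Sox10, Foxd3 and Cdh19, which define Schwann cells and their precursors, were at 0 in both, and the summed level of the 7 was 2.68 CPM in the control library and 3.45 CPM in the mutant library. Of 7 blood cell markers, 6 were measured and 5 called higher, where 6.98% of all measured genes were called higher. All 5 had under 20 counts in the control library, and 4 of them had 0 there. These 5 were measured only with their mutant counts, so nothing is read from their calls against that share. The summed level of the 7 markers was 6.96 CPM in the control library and 37.2 CPM in the mutant library. Lyz2, the lysozyme gene of myeloid cells, had 11 and 276 counts. Itgam (0 and 30 counts), Tyrobp (0 and 20), Laptm5 (0 and 31) and Itgb2 (0 and 49) were at 0 in the control library, Ptprc (CD45) had 1 and 12 counts, and Csf1r (149 and 229) was not called. These blood cell markers moved in the same direction as Uchl1, Map2 and Tubb4a, and their part in those results was not tested. Of 4 endothelial markers none were measured, with 5 counts in all in the control library, all of Pecam1, and 20 in the mutant library, 14 of them Kdr.

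Neuronal transcription factor genes were mostly at 0. Of 11 reported here, 6 had 0 counts in both libraries, among them Neurog2, Neurod1 and Sox2, which specify neural progenitors and neurons. Sox4, which many progenitors express, was called lower in the mutant library (3147 and 813 counts, 2.91-fold, 2.69 to 3.15). Sox11 (1582 and 864 counts) and Isl1 (396 and 241) were not called.

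The genes nearest to Uchl1 and Map2 in level were sought by the distance between log2 CPM values over the 2 libraries, among 12033 measured genes. Nearest to Uchl1 were Ptpn22, a phosphatase gene of lymphocytes (7 and 315 counts, distance 0.75 on the log2 scale), the chloride channel family gene Clic5 (5 and 195, distance 0.89) and the junction gene F11r (4 and 675, distance 0.95). Nearest to Map2 were Pcolce2, a collagen-processing gene (16 and 831 counts, distance 0.39) and Ildr2 (12 and 466, distance 0.60). None of these 5 genes encodes a part of the microtubule cytoskeleton. With 2 libraries such a distance compares 2 levels and says nothing about shared control.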

How the data were processed

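The table deposited by the authors holds raw, unnormalized read counts of 35275 Ensembl genes in 2 columns, 1 per genotype. Per the submitters' processing notes, CASAVA, TopHat, edgeR and the build mm9 were used, with no versions. The sources used here do not state the read counter, annotation or strand setting. No sample column was left unused. Symbols were matched for 34490 identifiers. Transcript lengths, overlaps and shared 50-base windows come from GENCODE M21, using each gene's longest transcript, promoter windows from RefSeq on GRCm38.p6, and both are on another build than the counts.

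Library totals were scaled with TMM (edgeR 4.0.16, R 4.3.3; factors 1.0358 for the control and 0.9654 for the mutant). Folds have exact Clopper-Pearson intervals at 95% (SciPy 1.17.1), levels exact Poisson intervals. For folds, 0 counts in 1 library became a floor of 3 counts. Log2 ratios in list medians and figures add a prior count of 0.5. The interval of the log2 ratio was 2.74 wide (median) at 20 to 39 counts and 0.233 wide at 1000 counts or more. With 1 library per genotype no test was run. The procedure was run on simulated libraries drawn with counting error only. Such libraries hold no variation between animals or sorts, so they cannot check calls against it. The members, the 18 further gene lists and the tests were chosen with earlier results of these data known. Named were all 10 genes, every gene or the called and most abundant genes of each list, the genes of the sort, and the 3 genes nearest in level to Uchl1 and Map2. Some genes that these rules name are left out, also from the counts, medians and sums of their lists. Other genes given with counts were chosen after their values were seen. Alternatives were other scalings (upper-quartile factors, size factors of DESeq2 1.42.0, total counts, and totals that leave out the 100 most abundant genes), removal of trends over length and GC content, and other count minimums, folds and interval levels.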

Additional observations from a re-analysis of the deposited data

How the results depend on the processing

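Uchl1, Map2 and Map1b were called higher under all 10 alternatives. Uchl1 and Map2 were picked by their ratios, and their lower bounds of 44.9 and 32.3 lie far beyond the limits used. Their calls under the alternatives are therefore no check of them. Stmn2 was called lower under all but the minimum of 100 counts, where it was not measured and 0 of the 10 genes were called lower. No direction among the 8 detected genes turned under the 5 alternative scalings and trend corrections, and no call in any of the gene lists changed under them. Over all genes, 2063 were called higher and 2046 lower at a fold of 1.5, and 223 and 265 at a fold of 4. The median log2 ratio of all measured genes was -0.10 with total counts and -0.12 when totals left out the 100 most abundant genes, against 0.01 with TMM. Of all calls, 45.7% were higher with TMM, 37.5% with total counts and 35.5% when totals left out those 100 genes. Depth limits what can be said of Mapt, Gap43, Nefl and Nefm, which held at most 7 counts over both libraries. No paired analysis was possible because there is 1 library per genotype, and for the same reason no replicate could be left out.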

Other observations

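Genes that lie next to the neuronal cytoskeleton genes were read by their order in the GENCODE M21 annotation, taking the 2 nearest protein-coding genes on each side that do not overlap, a choice made after the values of the 10 genes were seen. Beside Uchl1, the amyloid-binding protein gene Apbb2 had 1749 and 1167 counts in control and mutant, Limch1 49 and 30 and Nsun7 30 and 5, none of them called. Beside Map2, the metabolic gene Rpe had 657 and 415 counts and was not called, and Unc80 (0 and 1), Pth2r (7 and 0) and Crygf (0 and 0) were not measured. Of the 4 neighbours of Map1b, 3 were measured and Mrps27, the gene of a mitochondrial ribosomal protein, was called higher (181 and 363 counts, 2.67-fold, 2.23 to 3.21). Beside Stmn2, Zc2hc1a had 2147 and 936 counts, Il7, the interleukin-7 gene, 57 and 58, and Mrps28 301 and 391, none of them called. Beside Gap43, the immune receptor gene Tigit was called higher (3 and 64 counts, a ratio of 28.4, 9.28 to 141), measured only through the mutant library. Over all measured genes 15.3% were called, so nothing is read from these few neighbours.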
